A study of Mus musculus with 8 samples.

Results

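The matrix-binding integrin subunits examined in cultured mouse dermal fibroblasts were Itga1, Itga2, Itga3, Itga4, Itga5, Itga7, Itga8, Itga11, Itgb1 and Itgb3, chosen by symbol for what their proteins bind, with earlier results of these data known. All 10 of the 10 listed genes were among the 15111 genes of the deposited table. RNA was sequenced from primary fibroblasts of the back skin of mice that were 10 weeks old and had been fed tamoxifen, with 4 control libraries and 4 TGFβ1FKO libraries. Control mice carried the floxed alleles alone (Tgfb1fl/fl), and TGFβ1FKO mice carried in addition a tamoxifen-inducible Cre recombinase (Tgfb1fl/fl:Col1a2-CreERT). The Col1a2 promoter drives this Cre in collagen-producing cells, so other cells in a culture could keep Tgfb1. Cells of both groups were first cultured with serum and then grown for 72 h without it, in a replacement medium, on fibronectin. Fibronectin is itself a ligand of several of these receptors. The comparison asks whether fibroblasts that have lost their own TGFβ1 carry a different set of matrix receptors. The sources do not say whether each library came from a separate mouse, so the p-values measure only the spread between libraries, which may be technical.

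Integrins are membrane receptors made of an α and a β subunit that link the matrix outside the cell to actin inside it. The β1 subunit pairs with many α subunits, and the α partner sets the ligand. The subunits α1, α2 and α11 make collagen receptors, α3 and α7 make laminin receptors, and α4, α5 and α8 make receptors for fibronectin and related proteins. The β3 subunit pairs with αv to bind vitronectin and fibronectin. In fibroblasts these receptors carry attachment, matrix assembly and traction, and some αv integrins release active TGFβ from its latent form.

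Promoter sequences are shown for 4 subunits, because TGFβ signals reach many target genes through Smad proteins bound near the start site. The 250 bases before the annotated start were available for 8 of the 10 members, from RefSeq on GRCm38.p6, in 9 windows because Itga3 had a pair of starts. Each is written 5′ to 3′ on the strand of its gene, and capitals mark the short Smad-binding element CAGAC or its reverse complement. The Itgb1 window lies at chr8:128685404-128685653 on the plus strand, the Itga11 window at chr9:62677605-62677854 on the plus strand, the Itga5 window at chr15:103366792-103367041 on the minus strand and the Itga8 window at chr2:12301945-12302194 on the minus strand. Itgb1, Itga11 and Itga5 are the most abundant members, and Itga8 had the greatest log2 fold change of the members.
Itgb1: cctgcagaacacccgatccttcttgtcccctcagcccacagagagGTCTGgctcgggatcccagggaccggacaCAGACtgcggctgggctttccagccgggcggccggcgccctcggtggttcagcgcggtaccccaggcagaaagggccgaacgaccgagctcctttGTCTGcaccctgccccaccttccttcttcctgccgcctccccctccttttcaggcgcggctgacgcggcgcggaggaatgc
Itga11: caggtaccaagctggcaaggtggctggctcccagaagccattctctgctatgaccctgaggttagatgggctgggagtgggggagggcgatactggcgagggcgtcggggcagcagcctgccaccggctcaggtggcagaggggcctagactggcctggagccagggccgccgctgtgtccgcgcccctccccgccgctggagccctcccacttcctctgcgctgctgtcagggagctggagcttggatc
Itga5: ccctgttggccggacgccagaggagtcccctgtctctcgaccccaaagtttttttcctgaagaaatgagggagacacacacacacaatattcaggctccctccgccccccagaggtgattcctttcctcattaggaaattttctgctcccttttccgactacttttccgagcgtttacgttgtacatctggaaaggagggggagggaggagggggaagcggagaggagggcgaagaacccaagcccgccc
Itga8: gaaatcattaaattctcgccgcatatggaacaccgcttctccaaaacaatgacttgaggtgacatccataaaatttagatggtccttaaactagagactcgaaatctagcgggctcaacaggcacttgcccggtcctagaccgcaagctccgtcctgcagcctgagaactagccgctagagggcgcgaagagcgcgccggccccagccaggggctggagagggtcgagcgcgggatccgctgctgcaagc
The Itgb1 window held 3 copies of the element, whose first bases lie 205, 176 and 81 bases before the start, and the windows of Itga11, Itga5 and Itga8 held 0. The Itga2 window also held 3 copies, and Itga1, Itga3 and Itga4 each had 1 copy in a window. In all, 5 of the 9 windows held CAGAC on either strand, against 42.19% of 32851 windows of the same length across the genome. The AP-1 element TGACTCA, searched on both strands, was in 0 of the 9 windows and in 4.463% of all windows. The GC box GGGCGG, again on both strands, was in 5 of the 9 windows and in 32.74% of all windows. The ends of these 3 motifs share letters, so neighbouring copies could overlap, and a match describes the sequence only.

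The recovered reads per library ran from 16988998 to 21806579 in the control group and from 17445002 to 23071528 in the TGFβ1FKO group. The deleted gene Tgfb1 had 1401, 1298, 1483 and 1314 normalised counts in control replicates 1 to 4 and 326, 259.9, 228 and 295 in TGFβ1FKO replicates 1 to 4. It fell by 2.31 ± 0.10 on the log2 scale (SE, limma adjusted p = 1.53e-07, n = 4 per group). All 10 fibroblast markers were in the table and 0 of them reached an unadjusted p under 0.05 in limma, with Col1a1 at 599011 to 725180 normalised counts. Of the markers of other cells, 10 of 10 endothelial, 9 of 10 Schwann cell, 9 of 10 pericyte or smooth muscle, 4 of 10 macrophage, 4 of 10 keratinocyte and 2 of 10 skeletal muscle markers were in the table. The Schwann cell markers summed to 1516 to 2373 normalised counts in the control and to 748 to 1638 in the TGFβ1FKO libraries, and all 9 were lower at an unadjusted p under 0.05 in limma, which is no independent evidence, because some of that list, Sox10 and Foxd3 among them, entered it with their change in these samples known. All 10 endothelial markers had a log2 fold change below 0, with a median of -0.55, and 7412 of 15111 genes were below 0. Pecam1 (-0.99) and Cldn5 (-1.24), 20% of the 10, were lower at an unadjusted p under 0.05 in limma, beside 3.87% of all genes. Their levels were low, with control and TGFβ1FKO means of 50.8 and 25.4 normalised counts for Pecam1 and 21.0 and 10.2 for Cldn5. The 10 markers summed to 545 to 858 normalised counts in the control and to 524 to 584 in the TGFβ1FKO libraries. In bulk RNA, fewer cells of a type and less RNA per cell cannot be told apart.

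None of the 10 matrix receptor subunits was called different between the genotypes, and the most abundant of them, Itgb1, Itga11, Itga5 and Itgb3, had log2 fold changes of 0.08 to 0.12. A call needed a limma p under 0.05 after Benjamini-Hochberg adjustment over all genes and an absolute log2 fold change over 0.6, a rule that called 13 of 15111 genes, or 0.086%. Only Itga7, the α subunit of a laminin receptor known from muscle and nerve, had an unadjusted p under 0.05, against 7.46% of all genes, and it was lower, as were 3.87% of all genes at that p. edgeR on the recovered reads also called 0 members, against 0.132% of all genes, and gave 1 at an unadjusted p under 0.05, against 7.46%. DESeq2 tested against 0 called 0 members, against 0.371% of all genes, and gave 2 at an unadjusted p under 0.05, Itga7 and Itga8, against 6.58%. DESeq2 tested against 0.6 called 0 members, against 15 of 15111 genes. It gave 0 members at an unadjusted p under 0.05, against 59 of 15111 genes, so few that 0 of 10 says little about the members. The log2 fold change (TGFβ1FKO over control, on normalised counts with a pseudocount of 1) was above 0 for 8 members and below 0 for Itga2 and Itga7, and 50.9% of all genes had a value above 0. The median over the members was 0.10, beside 0.0031 over all genes, and became 0.04 without TGFβ1FKO replicate 2. In every member the values of the groups overlapped, whereas 3.79% of all genes had groups that did not overlap.

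The intervals give the size of change that the data leave room for. For 8 of the 10 members the 95% interval of the log2 fold change lay within 0.6 on either side of 0, which was so for 72.2% of all genes. The exceptions were Itga4 and Itga8, whose intervals reached 0.89 and 0.84. The interval of Itga7 ended just inside this limit and crossed it with TMM scaling, a pseudocount of 0.5 or at least 10 reads in every library, which left 7 of the 10 members within it, and 6 to 8 members were within it as each library was left out. In 8 of the 10 members the difference between the group means was smaller than the larger of the SDs of the groups. The share of all genes for which this was so was not computed, so the count only describes the members. The adjusted p-values in limma ran from 0.658 to 0.981, and the two-sided exact permutation p over the 8 libraries from 0.0857 to 0.857, where 4 libraries against 4 allow no p under 0.0286.

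**Figure D1:**
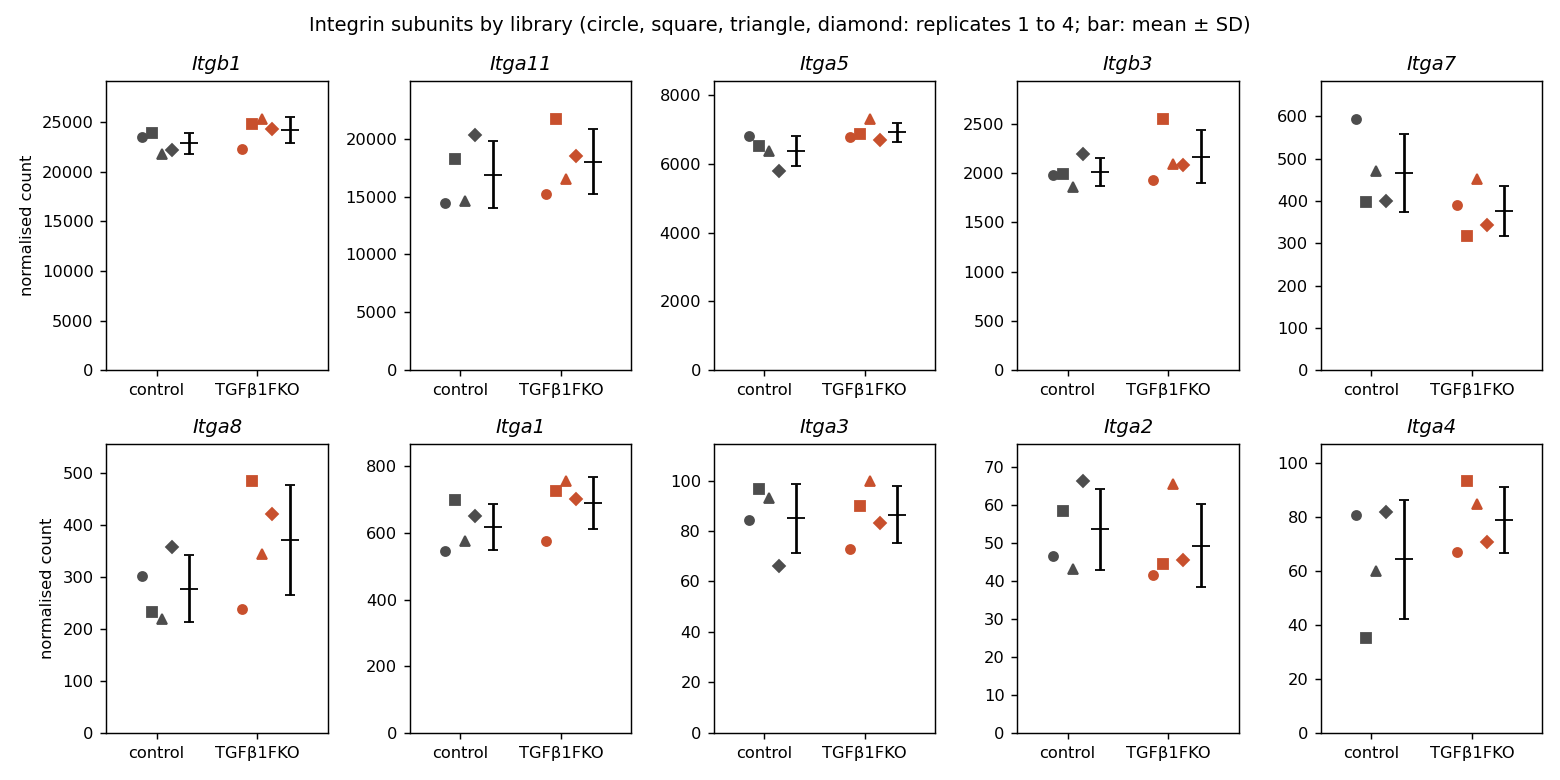
Normalised counts (vertical axes, each from 0) of the 10 matrix-binding subunits in the 4 control (grey) and 4 TGFβ1FKO (orange) libraries, with the replicate number given by the symbol and the mean ± SD of each group by the bar. The values of the groups overlap in all 10 panels, and in Itga7 3 of the 4 TGFβ1FKO libraries lie below every control library.

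Itgb1 encodes the common partner of nearly all these α subunits and lies at chr8:128685654-128733200 (GRCm38). It had 23501, 23871, 21762 and 22186 normalised counts in control replicates 1 to 4 and 22318, 24772, 25318 and 24242 in the TGFβ1FKO replicates. TGFβ1FKO replicates 2, 3 and 4 were above every control library, and replicate 1 was among the lower ones. The means were 22830.1 ± 1015 and 24162 ± 1306 (SD, n = 4 each), a log2 fold change of 0.08 with an interval from -0.05 to 0.21 (limma adjusted p = 0.798). Itgb1 had the tightest control group of the members, with a coefficient of variation of 4.45%.

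Itga11, at chr9:62677826-62783982, encodes the receptor subunit for fibrillar collagen that marks many fibroblasts. It had 14413, 18230.4, 14635 and 20359 normalised counts in the control and 15248, 21729.5, 16521 and 18550.1 in the TGFβ1FKO replicates. High and low libraries occurred in both groups, with replicates 2 and 4 above replicates 1 and 3 in each. The log2 fold change was 0.09 ± 0.12 (SE, limma adjusted p = 0.896, n = 4 per group), with an interval from -0.17 to 0.36. It ran from -0.000747 without TGFβ1FKO replicate 2 to 0.19 without control replicate 4. The SD was 2889.5 in the control and 2827 in the TGFβ1FKO group, more than the difference between the means of 16909 and 18012.

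The other collagen receptor subunits were Itga1 (chr13), which also binds basement membrane collagen, and Itga2 (chr13), better known from platelets and epithelium. Itga1 had 545, 699, 577 and 652 normalised counts in the control and 576, 726, 755 and 704 in the TGFβ1FKO replicates. Its log2 fold change was 0.16 ± 0.10 (SE, limma adjusted p = 0.734, n = 4 per group), and TGFβ1FKO replicate 1 lay among the low controls while the other 3 were above all of them. It became 0.10 without control replicate 1 and 0.24 without TGFβ1FKO replicate 1. Itga2 ran from 43.2 to 66.2 in the control and from 41.6 to 65.6 in the TGFβ1FKO group, with a log2 fold change of -0.12 and an interval from -0.57 to 0.32, and it became -0.01 without control replicate 4 and -0.26 without TGFβ1FKO replicate 3. The collagen receptors gave no call in either direction, and the widest interval among them belonged to the scarce Itga2.

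Among the fibronectin receptors, Itga5 (chr15:103344286-103366763) encodes the classical one, which binds the RGD site of the protein on which these cells were grown. It had 6807, 6528, 6359 and 5782 normalised counts in the control and 6782, 6869, 7311 and 6697 in the TGFβ1FKO replicates. All 4 TGFβ1FKO libraries were above the control mean of 6369 ± 432 (SD), but 2 of them were below control replicate 1. The mean of the TGFβ1FKO group was 6915 ± 273 (SD), a log2 fold change of 0.12 with an interval from -0.01 to 0.25 (limma unadjusted p = 0.0598, adjusted p = 0.671, exact permutation p = 0.0857). This exact p was the smallest among the members, and the log2 fold change became 0.07 without control replicate 4.

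Itga8 (chr2:12106632-12301922) pairs with β1 to bind nephronectin and fibronectin and is found in mesenchymal and smooth muscle cells. It had 302, 233, 219.6 and 358 normalised counts in the control and 238, 485, 345 and 422 in the TGFβ1FKO replicates. TGFβ1FKO replicates 2 and 4 were above every control library, while replicate 1 was near the lowest controls. With means of 278 ± 64.2 and 372 ± 106 (SD), the log2 fold change was 0.40 ± 0.20 (SE, limma unadjusted p = 0.0711, adjusted p = 0.682, n = 4 per group), and it became 0.26 without TGFβ1FKO replicate 2 and 0.60 without TGFβ1FKO replicate 1. Of the 9 pericyte or smooth muscle markers in the table, 5 had a log2 fold change above 0 and 4 below. The smooth muscle genes Myh11 (0.71), Cnn1 (0.42) and Acta2 (0.19) were higher and the pericyte gene Cspg4 (-0.50) lower at an unadjusted p under 0.05 in limma. Notch3 (0.24), Rgs5 (0.17), Des (-0.16), Mcam (-0.26) and Abcc9 (-1.20) had an unadjusted p above 0.05. None was called in limma, and Myh11 was called by edgeR (adjusted p = 0.0497), by DESeq2 tested against 0 (adjusted p = 3.41e-05), with a replicate block (limma adjusted p = 0.0248) and without TGFβ1FKO replicate 1 (limma adjusted p = 0.0106). The 9 markers summed to 33111 to 40751 normalised counts in the control and to 38096 to 46362 in the TGFβ1FKO libraries, nearly all of it Acta2, with means of 34199.8 and 39021. The paper takes Acta2 as a hallmark gene of myofibroblasts, which arise from fibroblasts, so this sum does not count pericytes or smooth muscle cells. Whether such cells had a part in the Itga8 values was not tested.

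Itga4, on chr2, encodes a fibronectin and VCAM1 receptor subunit that is best known from leukocytes. It had 80.9, 35.1, 59.9 and 82.0 normalised counts in the control and 66.9, 93.2, 84.7 and 70.9 in the TGFβ1FKO replicates. Control replicate 2 was the lowest of all 8 libraries, with 33 reads. The log2 fold change of 0.35 ± 0.25 (SE, limma adjusted p = 0.776, n = 4 per group) became 0.09 without that library. Of the 10 macrophage markers, 6 were not in the table, Ptprc, Adgre1 and Itgam among them. The 4 present were Lyz2, with means of 287 and 231 normalised counts in the control and TGFβ1FKO groups, Csf1r with 113 and 117, Cd68 with 95.2 and 77.0, and Mrc1 with 6.11 and 7.66. The part of these cells in the Itga4 values was not tested.

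The laminin receptor subunits were Itga7 and Itga3. Itga7 (chr10:128933818-128958282) had 594, 398, 470.2 and 401 normalised counts in the control and 391, 317, 451 and 343 in the TGFβ1FKO replicates. Only TGFβ1FKO replicate 3 reached into the range of the controls, and control replicate 1 was the highest of all libraries. The means were 466 ± 91.9 and 376 ± 58.9 (SD), a log2 fold change of -0.30 with an interval from -0.60 to -0.01 (limma unadjusted p = 0.0452, adjusted p = 0.658, exact permutation p = 0.114). The unadjusted p was above 0.05 without control replicate 1 or 3 and without TGFβ1FKO replicate 1, 2 or 4, and the log2 fold change became -0.18 without control replicate 1. The Schwann cell and endothelial markers given above moved in the same direction as Itga7. The smooth muscle genes Myh11, Cnn1 and Acta2 given above moved the other way. Of the 9 pericyte or smooth muscle markers in the table, 5 had a log2 fold change above 0 and 4 below. Of the 10 skeletal muscle markers, 8 were not in the table, Pax7, Myod1, Myf5 and Myog among them, and Acta1 had means of 663 and 783 normalised counts in the control and TGFβ1FKO groups and Chrna1 16.6 and 11.3. The part of other cells in the Itga7 values was not tested. Itga3 on chr11, a subunit typical of epithelium, ran from 66.2 to 96.7 in the control and from 73.0 to 99.6 in the TGFβ1FKO group, with a log2 fold change of 0.03.

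Itgb3 (chr11:104608000-104670476) was the only member that pairs with αv and not with an α subunit of the list. It had 1983, 1994, 1861 and 2196 normalised counts in the control and 1924, 2549.7, 2096 and 2084 in the TGFβ1FKO replicates. TGFβ1FKO replicate 2 was the only library of its group above every control. The log2 fold change was 0.10 ± 0.08 (SE, limma adjusted p = 0.810, n = 4 per group), and it became 0.02 without that library and 0.16 without TGFβ1FKO replicate 1. Its partner Itgav, which is not among the 10 members, had a log2 fold change of 0.12 with an unadjusted p of 0.0729 in limma.

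**Figure D2:**
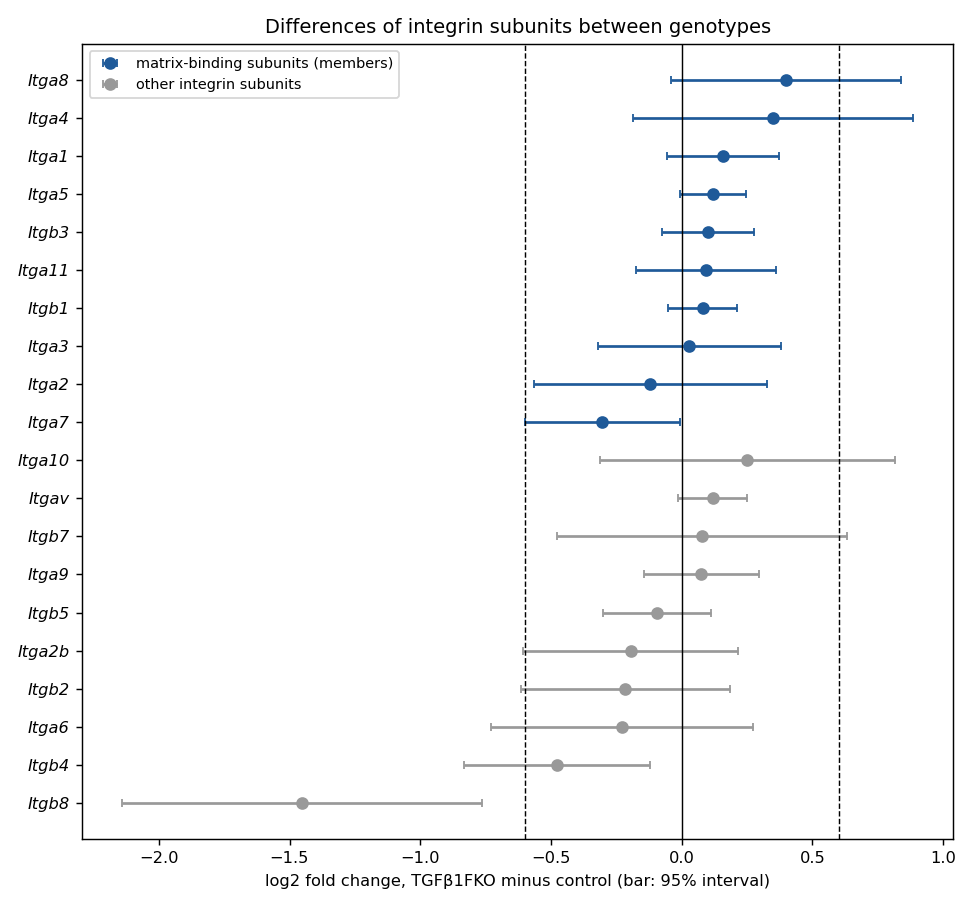
Log2 fold change (TGFβ1FKO minus control, horizontal axis, limma) with its 95% interval for the 10 matrix-binding subunits (blue) and the 10 other integrin subunits in the table (grey), with dashed lines at 0.6 on either side of 0. Only the intervals of Itga4 and Itga8 cross a dashed line among the blue points, and the interval of Itgb8 lies wholly below the lower line.

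Counted per kb of exon, which lets levels of different genes be compared, the members spanned a 1123-fold range. Itgb1 was the highest at 5757 normalised counts per kb over the 8 libraries (5333 to 6204), followed by Itga11 at 3403 (2809 to 4235), Itga5 at 1346 (1172 to 1482) and Itgb3 at 353 (315 to 432). The ranges of these 4 genes over the libraries did not overlap. Itga7 at 52.0, Itga8 at 44.1 and Itga1 at 35.2 normalised counts per kb came next, and the ranges of Itga7 and Itga8, and of Itga8 and Itga1, overlapped. Itga3 at 15.0 stood apart from Itga1 and from Itga2 at 7.21, while Itga2 and Itga4, at 5.13, overlapped. With the longest transcript as the length, Itga1 came above Itga8 and Itga4 above Itga2, and the other places were as given. The range was then 851-fold, and Itga7, at 105 normalised counts per kb, stood apart from Itga1, at 59.6. The β5 subunit gene Itgb5, which is no member, was at 3697 per kb and Itgav at 446.

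**Figure D3:**
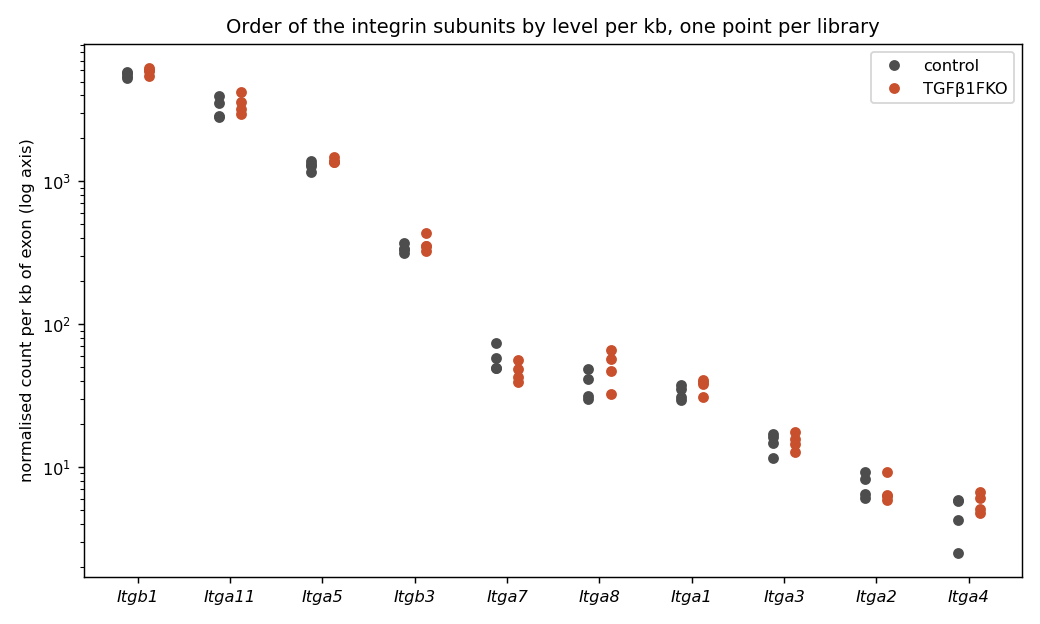
Normalised counts per kb of exon (vertical log axis) of the 10 subunits in order of their mean, with a point for each control (grey) and TGFβ1FKO (orange) library. Itgb1, Itga11, Itga5 and Itgb3 form separate steps from 5757 to 353, and Itga7, Itga8 and Itga1 lie together between 52.0 and 35.2.

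The balance among the α subunits was then taken within each library, which does not depend on how libraries were scaled. Itga11 made up 69.1% ± 4.63 of the summed per-kb level of the 8 α members in the control and 68.9% ± 3.38 in the TGFβ1FKO group (SD, n = 4 each). Itga5 made up 27.5% ± 4.25 and 27.9% ± 3.22. Itga11 and Itga5 were therefore nearly all of the summed level of the 8 listed α members in both genotypes. Itgav, at 446 normalised counts per kb, and Itga9, at 65.8, are not in this sum. The share of Itga7 was 1.24% ± 0.352 and 0.931% ± 0.218, that of Itga8 0.795% ± 0.156 and 0.982% ± 0.191, and Itga1, Itga2, Itga3 and Itga4 each had a mean under 1% in both groups. The ranges of the groups overlapped for every α member. Itgb1 stood at 1.19 ± 0.126 times the summed per-kb level of the 8 α members in the control and at 1.17 ± 0.0971 times in the TGFβ1FKO group.

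Some pairs of members varied together over the 8 libraries. Over the 8 libraries, Itga11 and Itgb3 had a Pearson r of 0.855 (exact permutation p = 0.00203, adjusted p = 0.0458 over 45 pairs) and a Spearman rho of 0.857 (exact permutation p = 0.0107, adjusted p = 0.209). Within the control group r was 0.837 and within the TGFβ1FKO group 0.938, each over 4 libraries, and r was 0.868 without the 2 libraries farthest from the median of Itga11. Itga8 and Itgb3 had r = 0.863 (exact permutation p = 0.00176, adjusted p = 0.0458) and rho = 0.857 (exact permutation p = 0.0107, adjusted p = 0.209), with r = 0.758 without the 2 libraries farthest in Itga8. TGFβ1FKO replicate 2 was the highest library for all 3 genes. Itga7 ran against Itga11, with r = -0.787 (exact permutation p = 0.0166, adjusted p = 0.250), rho = -0.762 (exact permutation p = 0.0368, adjusted p = 0.236) and r = -0.557 without the 2 farthest libraries. By the Pearson adjustment 2 of the 45 pairs passed 0.05, and by the Spearman adjustment 0 did. Over 11561 genes, deviations from the group mean correlated at -0.319 to 0.387 between control and TGFβ1FKO libraries. How often pairs of other genes reach such an r was not tested.

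**Figure D4:**
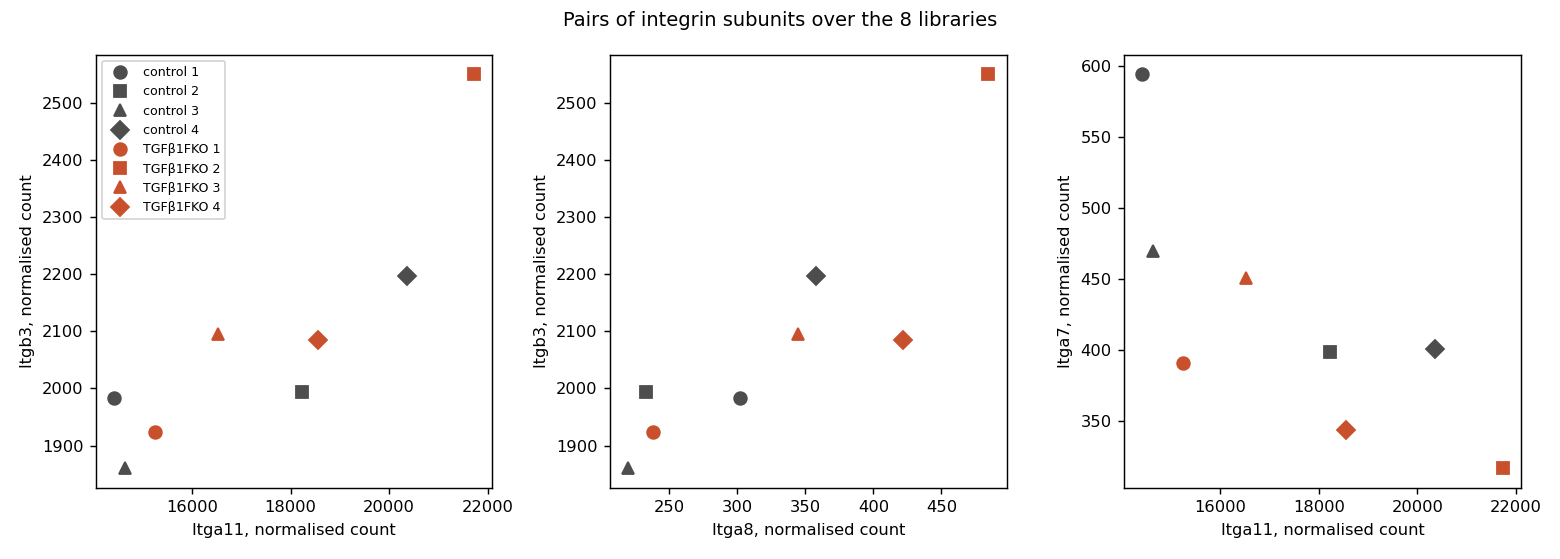
Normalised counts of 3 pairs of subunits (Itgb3 against Itga11, Itgb3 against Itga8, Itga7 against Itga11) with a point for each of the 8 libraries, coloured by genotype (control grey, TGFβ1FKO orange) and with the symbol for the replicate number. Control and TGFβ1FKO libraries are mixed along the trends of Itgb3 with Itga11 and with Itga8, with r of 0.855 and 0.863. In the panel of Itga7 against Itga11, with r of -0.787, 3 of the 4 TGFβ1FKO libraries lie below every control library in Itga7. The axes do not start at 0.

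The genes whose pattern over the 8 libraries was most like that of Itga7 were Pgrmc2 (Pearson r = 0.963), Lif (r = 0.950) and Mgat3 (r = 0.949), among 11560 genes with a mean of at least 50 normalised counts. These values describe likeness only, with the libraries as the points, and carry no test.

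Among the integrin subunits outside the list of 10, Itgb8 and Itgb4 were lower at an unadjusted p under 0.05 in limma and none was called. They were 20% of the 10 in the table, beside 3.87% of all genes that were lower at that p. Of the 16 listed, 10 were in the table, and Itgad, Itgae, Itgal, Itgam, Itgax and Itgb6, which are mostly leukocyte or epithelial subunits, were not. Itgb8, whose product pairs with αv and releases TGFβ from its latent form, had 29.2, 68.0, 69.9 and 32.6 normalised counts in the control and 20.3, 12.4, 19.1 and 14.4 in the TGFβ1FKO replicates. These groups did not overlap, which was so for 3.79% of all genes. Its log2 fold change was -1.45 ± 0.32 (SE, limma unadjusted p = 0.00056, adjusted p = 0.169, n = 4 per group), which was not a call in limma, whereas DESeq2 tested against 0 called it (adjusted p = 0.00576). Itgb4, the partner of α6 in a laminin receptor of epithelium and Schwann cells, had 117, 179.6, 149.7 and 108 normalised counts in the control and 103, 97.3, 104 and 85.3 in the TGFβ1FKO replicates, again without overlap. Its log2 fold change was -0.48 ± 0.16 (SE, limma unadjusted p = 0.0124, adjusted p = 0.555, n = 4 per group). The Schwann cell and endothelial markers given above moved in the same direction. Of the 4 keratinocyte markers in the table, Dsp (log2 fold change 1.01) and Trp63 (0.57) were higher at an unadjusted p under 0.05 in limma. Krt10 (-0.000709) and Cdh1 (-0.01) had an unadjusted p above 0.05. The part of all these cells in the Itgb8 and Itgb4 values was not tested. The other 8 subunits, Itga2b, Itga6, Itga9, Itga10, Itgav, Itgb2, Itgb5 and Itgb7, had log2 fold changes from -0.23 to 0.25, and each had an unadjusted p above 0.05 in limma.

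The genes with which these receptors work were taken from lists of ligands, adaptors and other receptors. Of the 25 matrix ligands 24 were in the table, Vtn being the one that was not, 20 of them with a log2 fold change above 0 and with a median of 0.09. This median became 0.031 without control replicate 1 and 0.048 without control replicate 3, with 17 genes above 0 in each case, and 0.055 without TGFβ1FKO replicate 3, with 18. None was called in limma, and only Postn, which encodes periostin, a matrix protein that integrins bind, had an unadjusted p under 0.05, against 7.46% of all genes. It had 87640.0, 93556, 83086 and 94413 normalised counts in the control and 84102, 54087, 74104 and 71049 in the TGFβ1FKO replicates, a log2 fold change of -0.36 (limma unadjusted p = 0.00966, adjusted p = 0.536). Fn1, the fibronectin gene, had a log2 fold change of -0.03 and Col1a1 one of 0.03.

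None of the adaptors that couple integrins to actin was called in limma. Of the 34 listed, 32 were in the table and 24 of these had a log2 fold change above 0, with a median of 0.06. At an unadjusted p under 0.05, 9 of the 32 (28.1%) were higher and 0 lower, beside 3.59% of all genes that were higher. Flna, which encodes the actin cross-linker filamin A, had 31333, 34142, 29815 and 30971 normalised counts in the control and 34320.2, 37970.1, 40108 and 37056 in the TGFβ1FKO replicates. Every TGFβ1FKO library was above every control library, by a log2 fold change of 0.24 ± 0.07 (SE, limma unadjusted p = 0.00376, adjusted p = 0.455, n = 4 per group). Tln1 (talin, which switches integrins on, 0.21), Parva (parvin α, 0.15), Tns1 (tensin, 0.20) and Vcl (vinculin, 0.19) followed with these log2 fold changes at unadjusted p under 0.05, each with overlapping groups. The kindlin gene Fermt2 and the focal adhesion kinase gene Ptk2 were both at 0.03. Ilk had a log2 fold change of 0.30 (limma unadjusted p = 0.0555), but 89.7% of its exon bases are shared with Rrp8 or Taf10, so its reads are uncertain. The count of 9 became 5 without TGFβ1FKO replicate 2, 5 without TGFβ1FKO replicate 3 and 13 without TGFβ1FKO replicate 1. Of the pericyte or smooth muscle markers given above, 5 had a log2 fold change above 0 and 4 below, and their part in the adaptor values was not tested.

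**Figure D5:**
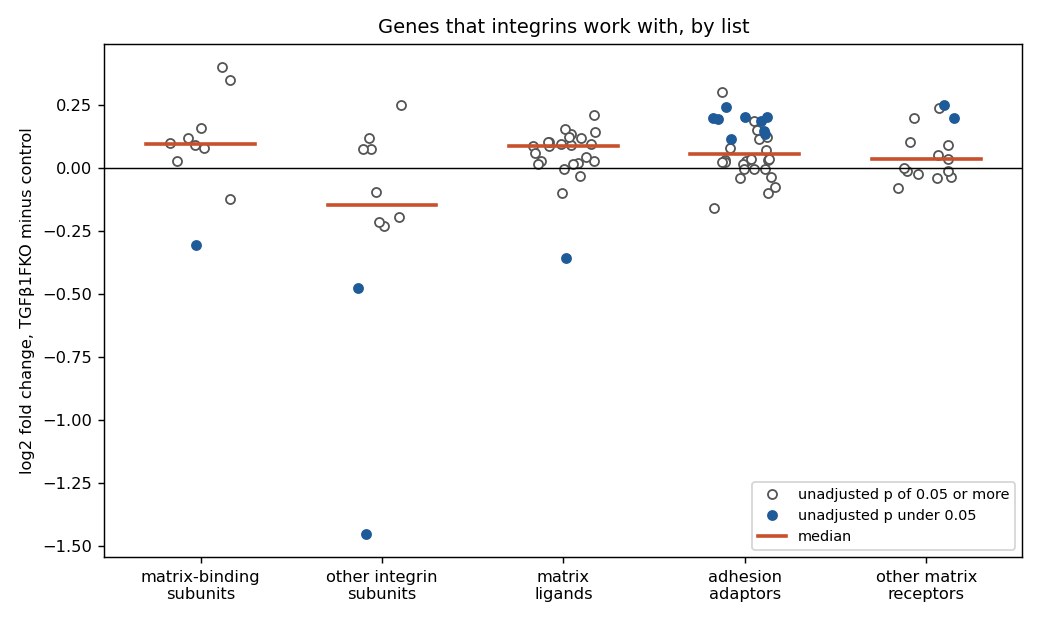
Log2 fold change (TGFβ1FKO minus control, vertical axis) of each gene in 5 lists (10 matrix-binding subunits, 10 other subunits, 24 ligands, 32 adaptors, 15 other receptors), with filled points for an unadjusted p under 0.05 in limma and a bar at the median. In the adaptors 9 filled points lie above 0 and none below, and Itgb8 is the lowest point at -1.45.

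Of the matrix receptors that are not integrins, all 15 listed were in the table, 9 with a log2 fold change above 0, with a median of 0.04 (0.02 to 0.07 as each library was left out) and none called in limma. Cd44, the hyaluronan receptor, and Ddr2, a receptor kinase for fibrillar collagen, were higher at an unadjusted p under 0.05, with log2 fold changes of 0.25 (adjusted p = 0.589) and 0.20 (adjusted p = 0.641) in limma. They were 13.3% of the 15, beside 3.59% of all genes that were higher at that p. The libraries keep no strand, and exons that overlap another gene made up 8.04% of the exon bases of Itga4 (with Cerkl), 5.05% of Itga8 (with E030013I19Rik), 3.68% of Itga1 (with Gm49395) and 0.111% of Itga7 (with Mettl7b), so reads there cannot be told apart. Exons of the other 6 members shared 0 bases with another annotated gene.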

How the data were processed

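RNA of dermal fibroblasts of control and TGFβ1FKO mice was sequenced, 4 libraries per genotype, grouped by the labels. Per the submitters' processing notes, CASAVA 1.8, HISAT2 2.0.5 (GRCm38/mm10), featureCounts 1.5.0-p3, R 4.3.2 and DESeq2 1.42.0 were used, and the authors kept genes whose summed reads reached 40. The deposited normalised count, a signal that is never negative, is the read number of a gene over the DESeq2 size factor of that library, plus 0.5. The authors also deposited a mean signal over all libraries, per-gene results of their own comparison (log2 fold change, standard error, Wald score, p-value raw and adjusted), and these 6 columns were not used.

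The 0.5 was subtracted, which gave whole reads within 0.01 of a read for 100.0% of values in each library. Log2 values with a pseudocount of 1 entered limma 3.58.1 (R 4.3.3, variance trend on), with Benjamini-Hochberg adjustment over 15111 genes. edgeR 4.0.16 and DESeq2 1.42.0 on the recovered reads, TMM scaling, pseudocounts of 0.5 and 5, a minimum of 10 reads in every library, a replicate block and leaving out each library were alternatives. Single genes and pairs were also compared by exact two-sided permutation. Few reads limit the scarce subunits. The tests were checked on simulated data. Gene models were GENCODE M21 on GRCm38.

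The members and lists were chosen with earlier results of these data known. Named genes were all members, the other integrin subunits, Tgfb1, from each list up to 5 genes with the smallest unadjusted p under 0.05, Fn1, Vtn, Col1a1, Ilk, Tln1, Fermt2, Ptk2, Vcl, and the 3 genes most like the member with the smallest p. Marker genes were named with their lists. A gene of the marker lists is not reported here by name.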

Additional observations from a re-analysis of the deposited data

Results flagged for a closer look

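Itga2 in TGFβ1FKO replicate 3 stood far from the rest of its group, at 65.6 normalised counts against 41.6 to 45.4 in the other 3 libraries. Its gap to the nearest library was 0.839 of the range of the group, above Dixon's 95% critical value for 4 samples. Of the 20 groups of 4 tested over the members, 1 was found, and chance gives about 1 in 20. The control libraries of Itga2 ran from 43.2 to 66.2, so the value lies within their range.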

How the results depend on the processing

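No member was called under any alternative run, and the number at an unadjusted p under 0.05 ran from 0 to 2. The 13 genes called in limma became 20 with edgeR, 56 with DESeq2 tested against 0, 3 with at least 10 reads in every library and 31 with a replicate block, and 5 to 32 as libraries were left out: 7, 6, 5 and 32 without control replicates 1, 2, 3 and 4, and 5 without TGFβ1FKO replicate 2 or 4. In the 4 other lists of integrin partners, 1 gene (Itgb8) was called with DESeq2 tested against 0 and 0 otherwise. As libraries were left out, the log2 fold change of Itga3 ran from -0.086 to 0.11, below 0 without control replicate 4 or TGFβ1FKO replicate 3 (-0.042), and that of Itga11 from -0.000747, without TGFβ1FKO replicate 2, to 0.19. Control and TGFβ1FKO samples share only a replicate number: the deviations of same-numbered libraries correlated at 0.156, -0.134, 0.0523 and 0.159 over 11561 genes. With the block, the lowest adjusted p of a member was 0.390, for Itga7. The causes were not tested. Few reads limit Itga2, Itga3 and Itga4, with 33 to 120 reads per library.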
